A study of Fukomys damarensis and Heterocephalus glaber and Cavia porcellus with 28 samples.

Results

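Hearts of the Damaraland mole-rat, a long-lived social African rodent that lives in burrows, were compared with hearts of the laboratory mouse, gene by gene. The series holds 28 RNA-sequencing libraries of heart and liver from 4 rodent species, and the comparison described here rests on 8 of them: 5 Damaraland hearts and 3 mouse hearts. Total RNA was depleted of ribosomal RNA before sequencing. The heart table lists 13928 genes under mouse gene identifiers. Genes were kept when their mean over the 8 libraries lay at least 1 above the lowest value of the table, which stands for 0 reads. This kept 10485 genes, left out 3431, and 12 genes of the mitochondrial genome were set apart. The mice were males of 2 months, with no strain given in the labels. The Damaraland mole-rats were males of 36 months (replicates 2 and 5) and 48 months (replicates 1, 3 and 4) by the labels of the heart libraries; the liver label of the animal of replicate 1 gives 36 months instead. Hearts of guinea pigs of 2.3 months and of naked mole-rats of 13, 15 and 17 months, by the labels, are given beside them. The labels name no treatment and no genetic change, and they give each library of a tissue its own animal. Age, species and the way reads of each species were assigned to genes differ together between the groups and cannot be told apart.

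A mammalian ventricle contracts when an action potential opens calcium channels, calcium is released from the sarcoplasmic reticulum, and myosin heads pull on actin filaments. The mouse heart beats far faster than that of most mammals, runs almost wholly on the fast alpha myosin (Myh6), and repolarises through transient outward and delayed rectifier potassium currents. Hearts of larger or slower-beating mammals use more of the slow beta myosin (Myh7), and most adult hearts draw much of their ATP from fatty acids.

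Reads recovered from the deposited values numbered 8551766 to 22024715 in the Damaraland hearts and 23485705 to 26985779 in the mouse hearts. Spearman correlations over genes were 0.932 to 0.979 among Damaraland libraries and 0.988 to 0.990 among mouse libraries. The median SD of a gene was 0.26 over the Damaraland and 0.11 over the mouse libraries. Damaraland replicates 4 and 5 stood somewhat apart, and replicates 1 to 3 correlated with each other at 0.969 or more. Cardiomyocyte markers identified both tissues as heart: the 8 genes, Myh6, Actc1 and Ttn among them, summed to 1572960 to 2201350 scaled reads in Damaraland and 1993210 to 2388320 in mouse. Scaled reads are reads corrected for the depth of the library. The 12 genes of the mitochondrial genome took 0.0056% to 0.0279% of Damaraland reads and 22.4% to 25.6% of mouse reads. For mt-Co1, a cytochrome oxidase subunit, levels were 8.15 to 10.29 against 20.27 to 20.64. The way these 12 genes were counted in each species is not given in the sources used here, so their values are not read as expression.

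More than 1 in 3 genes differed between the 2 hearts. All levels below are the deposited values, which follow log2 of the read count for abundant genes and compress differences of rare ones: a 2-fold change from 1000 scaled reads moves the level by 0.946, and from 10 scaled reads by 0.282. A difference is always the Damaraland mean minus the mouse mean. Guinea pig and naked mole-rat hearts entered the limma fit too, so each standard error (SE) and p includes their spread. Genes were called when the difference was 1 or more in size and the Benjamini-Hochberg adjusted p of limma was under 0.05. By this rule 3723 of 10485 genes were called (35.5%), 1823 higher in Damaraland (17.4%) and 1900 lower (18.1%). For 3698 genes (35.3%) the gene was called and no Damaraland library overlapped any mouse library, and among all genes tested 66.3% had groups that did not overlap. The median difference was 0.02 and the median size of a difference 0.71, so the called genes lay on both sides of a distribution centred near 0. Of the called genes, 665 had a mean less than 1 above the lowest value in 1 of the species. In bulk tissue, fewer cells of a type and less RNA per cell cannot be told apart.

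**Figure D1:**
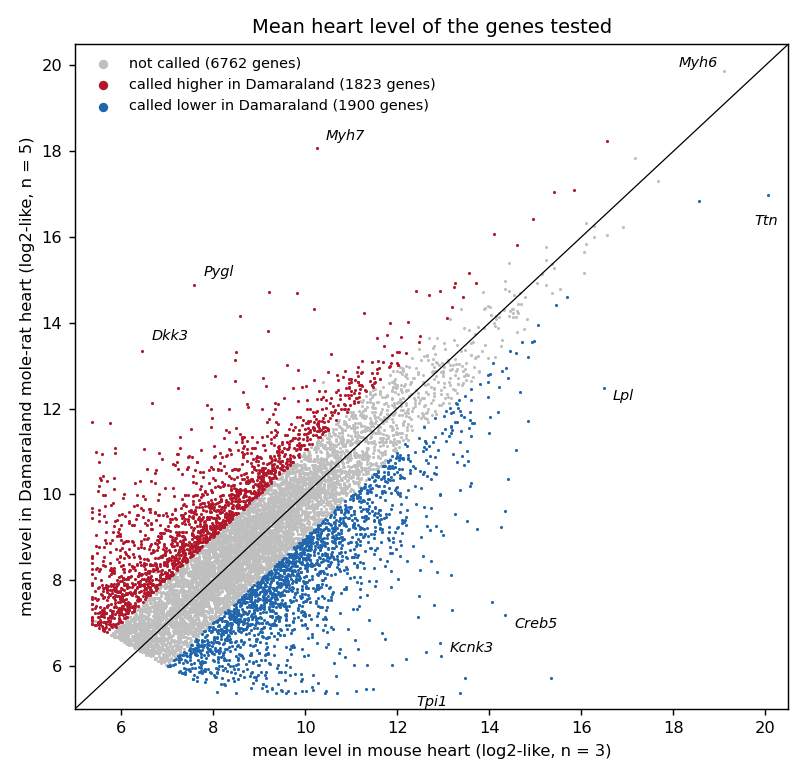
Mean level of each of the 10485 genes in mouse heart (horizontal axis, n = 3) and Damaraland mole-rat heart (vertical axis, n = 5), on the deposited log2-like scale; the line marks equal levels. The 1823 genes called higher and 1900 called lower in Damaraland flank a band of genes that were not called, and Myh7, Pygl and Dkk3 lie far above the line while Creb5, Kcnk3 and Tpi1 lie far below it.

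The genes with the largest differences included contractile, metabolic and membrane excitability genes. The 12 largest in each direction were taken among called genes whose groups did not overlap and whose mean was at least 1 above the lowest value in both species. Myh7 (ENSMUSG00000053093), the slow beta myosin heavy chain, had levels of 17.12, 18.87, 17.62, 18.73 and 18.00 in Damaraland replicates 1 to 5 and of 9.73, 10.40 and 10.63 in the mice. Every Damaraland heart lay more than 6 units above the highest mouse heart. The difference was 7.81 (SE 0.40, adjusted p = 5.1e-11), or a mean of 303692 against 1181 scaled reads. Guinea pig hearts had a mean Myh7 level of 18.43 and naked mole-rat hearts of 19.23, so the mouse lay furthest apart.

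Pygl (ENSMUSG00000021069), the liver-type glycogen phosphorylase, had levels of 16.22, 14.87, 14.73, 13.39 and 15.25 in Damaraland and of 7.18, 7.65 and 7.92 in mouse. All 5 mole-rat hearts were far above all mice, although they spread over almost 3 units, with replicate 1 highest and replicate 4 lowest. The difference was 7.31 (SE 0.41, adjusted p = 1.9e-10). Unlike Myh7, Pygl was low in guinea pig hearts, with a mean of 7.41, and the naked mole-rat mean was 12.75. Dkk3 (ENSMUSG00000030772), a secreted Dickkopf-family protein found in atrial muscle, had levels of 12.79, 14.09, 13.04, 13.65 and 13.14 in Damaraland and of 6.48, 6.49 and 6.39 in mouse. Its groups were widely separated, and its difference was 6.89 (SE 0.24, adjusted p = 6.1e-13).

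Lipid enzymes followed among the higher genes. Acaca (ENSMUSG00000020532), the acetyl-CoA carboxylase that makes malonyl-CoA for fatty acid synthesis, stood at 15.13, 14.86, 14.89, 14.79 and 13.95 in Damaraland hearts and at 9.00, 9.33 and 9.34 in mouse hearts, a difference of 5.50 (SE 0.21, adjusted p = 1.4e-12). Only Damaraland replicate 5 lay below 14, and it was still far above every mouse. Stard10, a phospholipid transfer protein, differed by 5.58, Rdh5, a retinol dehydrogenase, by 5.46, and Acsm5, a medium-chain acyl-CoA synthetase, by 5.26. The other genes of this group were the tropomyosin Tpm3 (4.87), the intermediate filament protein synemin, Synm (4.82), the microtubule-associated Map1a (4.71), the monocarboxylate transporter Slc16a7 (4.66) and Anapc7, a subunit of the anaphase-promoting complex (4.62).

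Creb5 (ENSMUSG00000053007), a CREB-family transcription factor, had the largest negative difference among genes at least 1 above the lowest value in both species. Its levels were 7.46, 6.74, 7.11, 7.53 and 7.12 in Damaraland and 14.38, 14.82 and 13.82 in mouse. The mice were high and all mole-rats low, with a difference of -7.15 (SE 0.21, adjusted p = 6.5e-14). Guinea pig (6.87) and naked mole-rat (7.36) hearts had means as low as the Damaraland hearts, and the difference from mouse was also called in liver, at -7.76. Kcnk3 (ENSMUSG00000049265), the TASK-1 background potassium channel, had levels of 6.59, 6.97, 6.33, 6.44 and 6.32 in Damaraland and of 12.96, 12.83 and 13.00 in mouse. No library of either group came near the other, and the difference was -6.40 (SE 0.24, adjusted p = 1e-12).

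Pdk4 (ENSMUSG00000019577), the kinase that switches off pyruvate dehydrogenase when fat is burnt, had levels of 8.80, 8.83, 8.61, 10.02 and 9.97 in Damaraland and of 14.31, 14.21 and 14.25 in mouse. Mouse hearts were uniform, Damaraland replicates 4 and 5 were higher than the other 3 mole-rats, and the groups stayed more than 4 units apart. The difference was -5.01 (SE 0.49, adjusted p = 1.5e-07). The other genes in this group were Trp53inp2, a regulator of autophagy (-6.55), the ubiquitin ligase Nedd4 (-5.89), the choline phosphotransferase Chpt1 (-5.39), the adhesion protein Fblim1 (-5.32), the mitochondrial GTPase Rhot2 (-5.11), supervillin, Svil (-5.05), the potassium channel subunit Kcnip2 (-4.89), the fucosidase Fuca2 (-4.83) and Arhgap26, a GTPase-activating protein (-4.75).

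**Figure D2:**
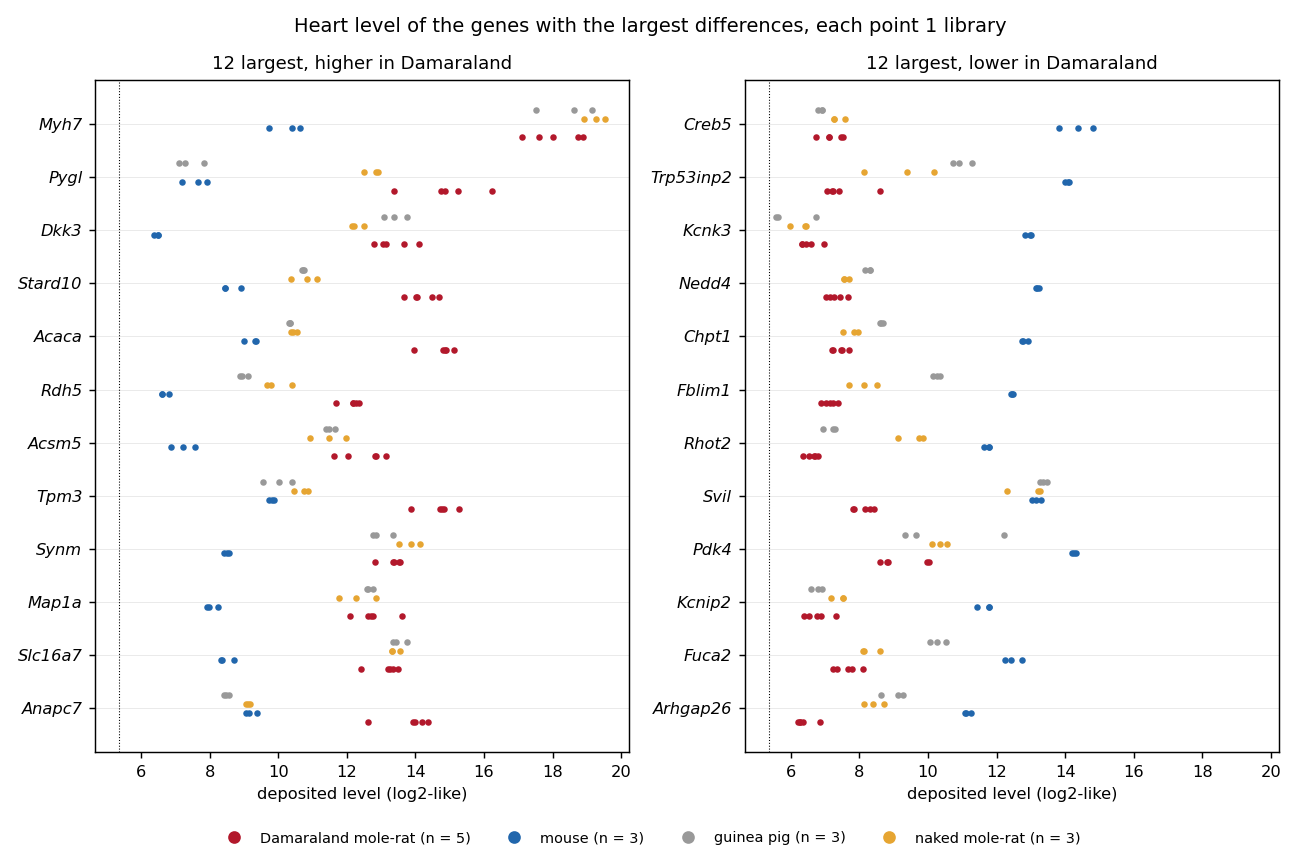
Levels (horizontal axis, log2-like) of the 12 genes with the largest positive and the 12 with the largest negative differences between Damaraland and mouse heart, each point 1 library and the dotted line the value of 0 reads. The red (Damaraland) and blue (mouse) points of each gene do not overlap; guinea pig points lie near Damaraland for Myh7, Dkk3, Creb5 and Kcnk3 and near mouse for Pygl, Tpm3, Anapc7 and Svil.

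The guinea pig and naked mole-rat hearts place some of these differences. Svil, which links the membrane to actin and myosin, had a mean of 8.11 in Damaraland against 13.16 in mouse, 13.36 in guinea pig and 12.93 in naked mole-rat, so that only the Damaraland hearts were low. Anapc7 means were 13.82, 9.20, 8.48 and 9.11 in the same order, and the Damaraland hearts alone were high. Tpm3 followed the same order, with 14.69, 9.82, 9.99 and 10.70. For Synm, Map1a, Slc16a7, Creb5, Kcnk3, Nedd4 and Kcnip2 Damaraland was not called against guinea pig or naked mole-rat. Across all 10485 genes, 29.3% were called between Damaraland and guinea pig hearts and 31.5% between guinea pig and mouse hearts; the shares were 37.5% between naked mole-rat and mouse and 28.5% between Damaraland and naked mole-rat. These comparisons share libraries with the one described here and are given for orientation.

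Genes of 20 heart pathways were examined as lists. The median difference of a list ran from -2.27 for ion channels and pumps to 0.89 for extracellular matrix, beside 0.02 for all genes tested, and each list's counts stand beside the 17.4% of all genes called higher and 18.1% called lower. Some genes named below lay less than 1 above the lowest value in 1 species and passed the filter through the other, so their differences are descriptions only: Tnni1, Sln, Aldoc, Ppp1r1a, Cfd, C6, Adipoq, Cidec, Cd79a, Bmp10 and S100b were this low in mouse, and Kcnd2, Kcnd3, Kcnj12, Hlf, Bhlhe41, Rgs4, Irf7, Ifit3, Cd68, Cx3cr1 and Dnaja1 in Damaraland. With the filter applied in each species, 1 calcium handling and 1 adrenergic or muscarinic gene were called higher instead of 2 each, and 2 complement and innate immunity genes were higher and 0 lower instead of 4 and 2.

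**Figure D3:**
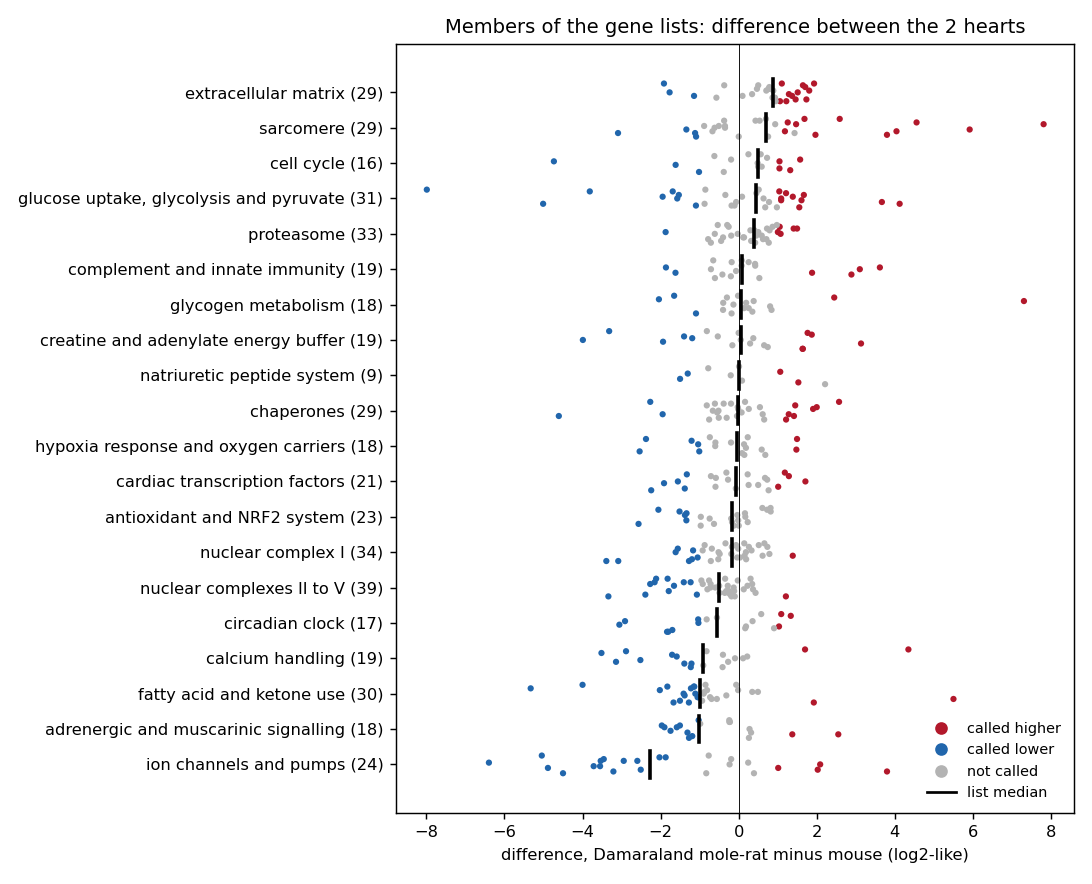
Difference between Damaraland and mouse heart (horizontal axis, log2-like) of each tested member of 20 gene lists, with the number tested in brackets and the list median as a black bar. Ion channels and pumps lie furthest to the left, with 14 of 24 members called lower, and extracellular matrix furthest to the right, with 12 of 29 called higher.

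Of 29 sarcomere genes tested, 11 were called higher in Damaraland, slow-muscle isoforms among them, 4 were lower and 14 were not called, with a median difference of 0.70, and all 15 had groups that did not overlap. The higher genes were the myosins Myh7, Myh7b (4.04) and Myl2 (1.69), the slow skeletal troponins Tnni1 (5.92) and Tnnt1 (3.80), the cardiac troponins Tnnt2 (1.26) and Tnnc1 (1.47), the tropomyosin Tpm2 (2.59), the M-band proteins Myom2 (1.97) and Myom3 (4.56), and the actin filament nucleator Lmod2 (1.19). The 4 lower genes were titin, Ttn, the Z-disc protein Ldb3 (-1.34), desmin, Des (-1.12), and cardiac troponin I, Tnni3.

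The fast myosin Myh6 was not called in either direction. Myh6 levels were 19.55, 19.85, 19.98, 19.89 and 20.04 in Damaraland and 19.01, 19.11 and 19.20 in mouse, and the difference of 0.75 (SE 0.40) had an adjusted p of 0.11. The groups did not overlap, with every mole-rat above every mouse. Guinea pig and naked mole-rat hearts had Myh6 means of 18.55 and 17.38, both called below Damaraland. The naked mole-rat levels were 18.98, 16.27 and 16.90, and this spread enters the SE of 0.40. The difference from mouse was also below the size limit. Myh6 and Myh7 are close paralogs, and how reads shared by both were divided in each species is not given in the sources used here.

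Tnni1, the slow skeletal troponin I of fetal hearts, had levels of 10.72, 10.98, 11.33, 11.65 and 13.66 in Damaraland and of 5.73, 5.76 and 5.77 in mouse. Every mole-rat was high and replicate 5 highest, while the mice had 2.65 to 3.21 scaled reads. Tnni3, the adult cardiac form, had levels of 14.74, 14.84, 14.76, 14.25 and 14.43 against 15.65, 15.75 and 15.68. The groups were apart, and the difference of -1.09 (SE 0.17, adjusted p = 3.6e-05) was close to the size limit; without Damaraland replicates 4 and 5 it was -0.92 and no longer called. Ttn, the giant spring of the sarcomere, had levels of 16.99, 16.76, 16.93, 17.81 and 16.37 against 19.87, 20.06 and 20.27. All mole-rats were lower than all mice, and the difference was -3.09 (SE 0.25, adjusted p = 1.2e-08).

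Of 19 calcium handling genes tested, 9 were called lower in the Damaraland hearts, 2 higher and 8 not called, with a median difference of -0.91. Atp2a2 (ENSMUSG00000029467), the SERCA2 pump that refills the store, had levels of 16.92, 16.93, 17.15, 16.53 and 16.68 in Damaraland and of 18.51, 18.50 and 18.63 in mouse. The highest mole-rat stayed more than 1 unit below the lowest mouse, and the difference was -1.71 (SE 0.20, adjusted p = 1.2e-06). Its inhibitor phospholamban, Pln, showed no call: levels were 16.31, 16.06, 16.07, 15.37 and 16.16 against 16.32, 16.07 and 16.40, the groups overlapped and the difference was -0.27 (SE 0.22, adjusted p = 0.29).

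Sarcolipin, Sln, a second SERCA inhibitor typical of atria, had levels of 9.05, 11.15, 9.13, 9.96 and 10.68 in Damaraland and of 5.55, 5.36 and 6.03 in mouse. The mice had 0 to 8.82 scaled reads, and the mole-rats spread over 2 units. Triadin, Trdn, and junctophilin, Jph2, of the junction between T-tubule and store were lower, at -3.52 (SE 0.18) and -2.52 (SE 0.42). The calcium-binding proteins sarcalumenin, Srl, at -3.14 (SE 0.26), and calsequestrin, Casq2, at -1.39 (SE 0.22), were lower too. S100a1, which enhances calcium release, differed by -2.89 (SE 0.48), with 1 Damaraland heart (replicate 2, 11.57) well above the other 4 (8.73 to 9.91). The release channel of the junction, Ryr2, differed by -0.41 (SE 0.20, adjusted p = 0.083) and was not called. The plasma membrane pump Atp2b4 was higher by 1.70 (SE 0.18).

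Ion channels and pumps held the largest share of called genes among the 20 lists (75% of those tested), with 14 of 24 lower and 4 higher and a median difference of -2.27. The lower genes covered several potassium currents that the mouse heart uses to repolarise. The transient outward current is carried by Kcnd2 and Kcnd3 with the subunit Kcnip2. Kcnip2 had levels of 6.75, 6.88, 6.53, 7.33 and 6.39 in Damaraland and of 11.43, 11.78 and 11.78 in mouse, a difference of -4.89 (SE 0.19, adjusted p = 2e-12). Kcnd2 was at 5.36 in 4 Damaraland hearts and at 5.66 in replicate 2, beside 10.13, 10.09 and 9.56 in mouse. Kcnd3 had levels of 5.73 to 6.38 against 8.93 to 8.99. For each of these genes every mole-rat was far below every mouse, and guinea pig hearts were low too, with means of 6.77 for Kcnip2 and 5.82 for Kcnd2.

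Among the other lower members were the ATP-sensitive channel subunits Kcnj11 (-3.21) and Abcc9 (-3.72), the inward rectifier Kcnj12 (-3.46), the pacemaker channel Hcn4 (-2.51), the T-type calcium channel Cacna1g (-2.03), the sodium channel subunit Scn4b (-3.54), and the sodium pump regulator Fxyd1 (-2.60). The L-type calcium channel Cacna1c, counted with calcium handling, was at -0.82 (SE 0.18, adjusted p = 6e-04) and stayed under the size limit.

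The 4 higher members were Gja5, Kcnj2, Kcnj5 and Kcnq1. Gja5, the connexin 40 of atria and the conduction system, had levels of 10.76, 10.71, 10.68, 11.76 and 11.48 in Damaraland and of 7.27, 7.32 and 7.24 in mouse, a difference of 3.80 (SE 0.33, adjusted p = 3.8e-08). Damaraland replicates 4 and 5 were highest, and guinea pig (7.48) and naked mole-rat (7.29) means lay with the mouse. The inward rectifier Kcnj2 (2.02, SE 0.18), the acetylcholine-gated Kcnj5 (2.09, SE 0.26) and the slow delayed rectifier Kcnq1 (1.01, SE 0.18) were also higher.

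**Figure D4:**
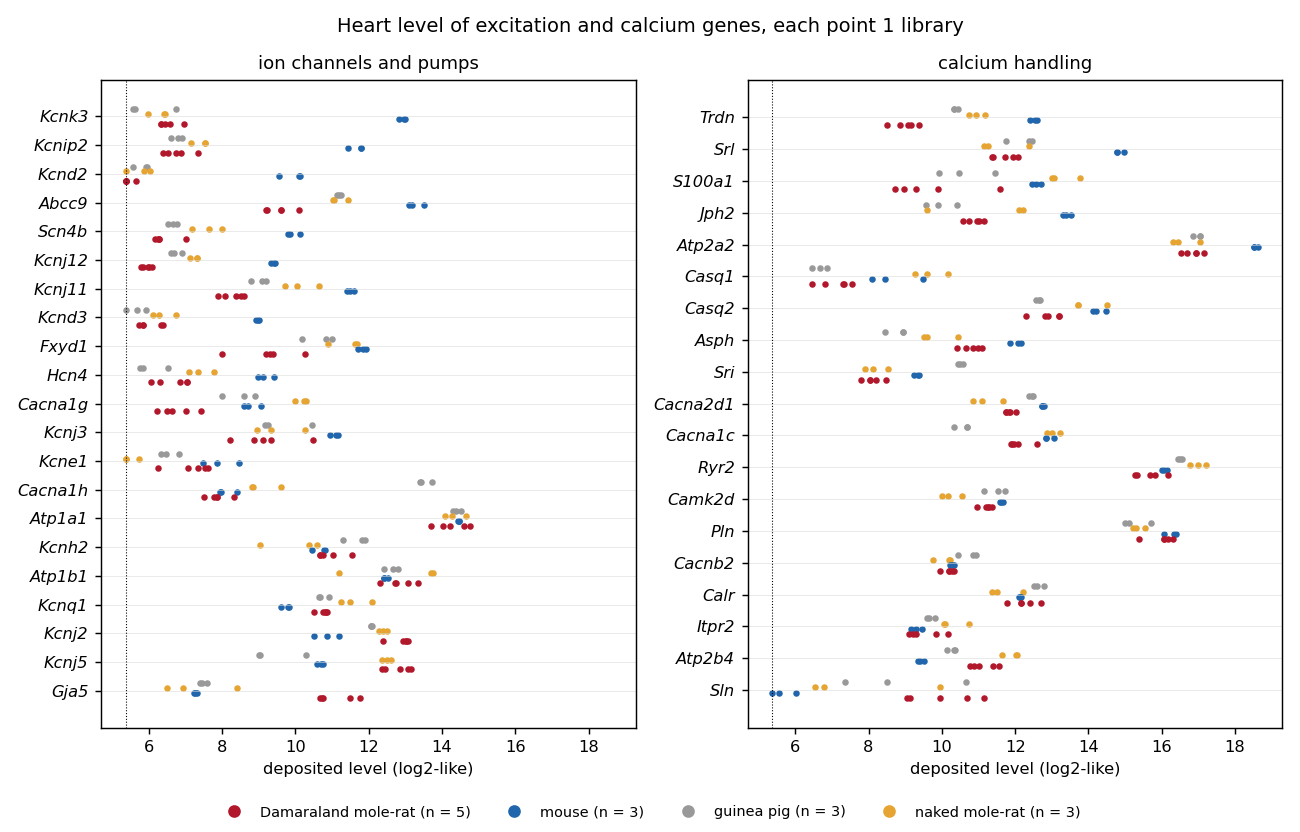
Levels (horizontal axis, log2-like) of 21 ion channel and pump genes and 19 calcium handling genes in each heart library, ordered by the difference between Damaraland (red) and mouse (blue); grey is guinea pig, orange naked mole-rat and the dotted line 0 reads. Kcnk3, Kcnip2 and Kcnd2 are low in Damaraland and high in mouse, while Gja5 and Sln are the reverse.

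Of 7 markers of atrial muscle tested, 4 were called higher in the Damaraland hearts (Nr2f2, Dkk3, Sln and Gja5) and 0 lower, also at an unadjusted p under 0.05 in limma, while Nppa, Bmp10 and Myl4 were not called. Their summed level was 11357 to 36004 scaled reads in Damaraland, of which Dkk3 gave 6983 to 17345, against 734 to 3696 in mouse. Guinea pig hearts summed to 9801 to 29230.5 and naked mole-rat hearts to 11201 to 45436, so the mouse hearts were the lowest. Dkk3 gave 8512 to 13850 in guinea pig and 4506 to 5656 in naked mole-rat. Bmp10, a hormone-like factor of atrial muscle, was at 1236 scaled reads in Damaraland replicate 5, at 4.37 to 40.8 in the other 4 and at 0 to 0.802 in mouse. Myl4, the atrial light chain, was at 8.59, 6.06, 8.44, 6.82 and 11.08 in Damaraland and at 6.63, 6.79 and 6.88 in mouse, so only replicate 5 stood far above the mice, and the difference of 1.43 was not called (SE 1.13, adjusted p = 0.27). The part that the region of heart sampled has in the values of Dkk3, Sln, Gja5 and the natriuretic genes was not tested.

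Natriuretic peptide genes differed in both directions, with 2 of 9 higher, 2 lower (44.4% called, beside 35.5% of all genes) and a median difference of 0.01. Nppa, the atrial peptide, had levels of 10.75, 13.18, 11.39, 13.53 and 14.20 in Damaraland and of 9.02, 11.76 and 10.41 in mouse. The groups overlapped, the mice alone spread over almost 3 units, and the difference of 2.21 (SE 0.96) had an adjusted p of 0.051; under 9 alternatives it was called, at 2.21 to 3.30. Corin, the protease that activates the peptide, was lower, at -1.31 (SE 0.24), as was the C-type receptor Npr2 at -1.50 (SE 0.20). Pde9a, which breaks down cGMP, was higher by 1.53 (SE 0.14). The receptor Npr1 was higher by 1.06 (SE 0.23, adjusted p = 6.4e-04), but at 0.95 without Damaraland replicate 4, 0.91 without replicate 5, 0.71 without both and 0.96 without mouse replicate 2 it was no longer called.

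Adrenergic and muscarinic signalling genes were lower for 9 of 18 tested and higher for 2, with a median difference of -1.01. The beta-1 receptor Adrb1, which drives heart rate and force, had levels of 7.46, 8.14, 8.03, 7.90 and 8.41 in Damaraland and of 9.50, 8.99 and 9.29 in mouse, a difference of -1.27 (SE 0.30, adjusted p = 0.0014). No mole-rat reached the lowest mouse. The alpha-1 receptors Adra1a (-1.51) and Adra1b (-1.31), the muscarinic receptor Chrm2 (-1.03), the phosphodiesterase Pde4b (-1.97) and the G protein regulator Rgs4 (-1.90) were lower as well. The cyclase Adcy5 (1.37, SE 0.17) and the phosphatase inhibitor Ppp1r1a (2.55, SE 0.26) were higher.

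Cardiac transcription factors split, with 4 of 21 higher, 5 lower and a median difference of -0.07. Gata4, a core factor of cardiomyocytes, had levels of 9.32, 9.00, 8.52, 9.26 and 8.97 in Damaraland and of 11.20, 11.24 and 11.33 in mouse. The groups were almost 2 units apart and the difference was -2.24 (SE 0.19, adjusted p = 2.5e-08); guinea pig and naked mole-rat means were 10.37 and 10.54. The related nuclear receptors of mitochondrial genes went opposite ways: Esrra was higher by 1.29 (SE 0.15) and Esrrg lower, at -1.91 (SE 0.19). Hand2 (1.71), Thra, the thyroid hormone receptor alpha (1.18), and Irx4 (1.01) were higher, while Foxo1 (-1.56), Foxo3 (-1.38) and Mef2d (-1.33) were lower. Nkx2-5, at -0.58 (SE 0.46, adjusted p = 0.27), was not called.

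Of 18 glycogen genes 2 were higher (Pygl and Pgm2) and 3 lower, or 27.8% called beside 35.5% of all genes, with a median of 0.06. Pygm, the muscle phosphorylase, had levels of 14.18, 14.44, 14.41, 14.13 and 14.44 in Damaraland and of 14.42, 14.45 and 14.63 in mouse. The groups overlapped, with a difference of -0.18 (SE 0.18, adjusted p = 0.39). The synthase Gys1 differed by -0.02 (SE 0.17) and the branching enzyme Gbe1 by 0.19 (SE 0.21). Pgm2, of the phosphoglucomutase family, was higher by 2.45 (SE 0.13), and Phkg1, a phosphorylase kinase subunit, was lower, at -2.04 (SE 0.16), as was the lysosomal glucosidase Gaa at -1.65 (SE 0.17).

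Genes of glucose uptake, glycolysis and pyruvate use differed in both directions, with 10 of 31 higher, 8 lower and a median of 0.45. Slc2a5, the fructose transporter GLUT5, had levels of 10.23, 10.70, 10.23, 9.96 and 10.45 in Damaraland and of 7.60, 6.52 and 5.81 in mouse. All mole-rats were high and close together, the mice were scattered, and the difference was 3.67 (SE 0.30, adjusted p = 1.4e-08). Fructokinase, Khk, the next step of fructose use, differed by -0.07 (SE 0.26, adjusted p = 0.84). The glucose transporter Slc2a1 (1.55), hexokinase Hk1 (1.39), Ldha, a lactate dehydrogenase (1.61), Aldoc, an aldolase (1.67), Pfkp (1.21), Gpi1 (1.04) and Eno1 (1.09) were higher, and the insulin-responsive transporter Slc2a4 was not called (-0.34, SE 0.19, adjusted p = 0.12).

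Isoforms of the same glycolytic step differed in opposite directions. Phosphoglycerate mutase Pgam1 had levels of 14.53, 14.29, 14.59, 13.89 and 14.25 in Damaraland and of 10.13, 10.37 and 10.06 in mouse, a difference of 4.12 (SE 0.18, adjusted p = 7.4e-12). Its muscle isoform Pgam2 had levels of 8.37, 10.02, 8.71, 9.47 and 9.15 against 12.93, 12.99 and 12.96, a difference of -3.81 (SE 0.27, adjusted p = 3.1e-09). Both separations were complete and of opposite sign, and how reads common to the isoforms were divided is not given in the sources used here. Muscle enolase Eno3 was lower (-1.10, SE 0.20) where Eno1 was higher. At the entry to the mitochondrion Mpc1 (-1.57), Pdha1 (-1.69), Pdk2 (-1.95) and Pdk4 were lower.

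Fatty acid and ketone genes were lower for 15 of 30 tested and higher for 2, with a median difference of -0.99. Lpl (ENSMUSG00000015568), the lipoprotein lipase that frees fatty acids at the capillary wall, had levels of 12.69, 12.76, 12.97, 11.86 and 12.18 in Damaraland and of 16.47, 16.38 and 16.62 in mouse. All mole-rats lay more than 3 units below all mice, with a difference of -4.00 (SE 0.23, adjusted p = 2.2e-10). The naked mole-rat mean was 12.81 and the guinea pig mean 15.27. Uptake genes Cd36 (-1.28), Slc27a1 (-2.02) and Fabp3 (-1.03), carnitine shuttle genes Cpt2 (-1.15) and Slc25a20 (-1.41), and the beta-oxidation genes Acadl (-1.22), Acads (-1.67) and Decr1 (-1.83) were all lower.

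Genes that make or remove malonyl-CoA differed as well: Acaca was higher, while Acacb (-1.14, SE 0.20) and the decarboxylase Mlycd (-1.11, SE 0.24) were lower. Bdh1, a ketone body dehydrogenase, had levels of 11.95, 12.02, 11.88, 11.25 and 11.91 in Damaraland and of 8.61, 10.00 and 11.01 in mouse. The mice spread over more than 2 units, the groups did not overlap, and the difference was 1.92 (SE 0.35, adjusted p = 1.3e-04). Oxct1, which activates ketone bodies, was lower, at -1.39 (SE 0.22). The receptor Ppara, which drives fatty acid genes, differed by 0.77 (SE 0.15, adjusted p = 2.4e-04), below the size limit. Adipocyte markers summed to 3317 to 4786 scaled reads in Damaraland and 5394 to 6540 in mouse, with the fatty acid binding protein Fabp4 giving most of the sum, while Adipoq and Cidec, 2 of the 3 tested, were called higher. Lep, Ucp1 and Plin1 were under the filter. Lep was at 0 in all mice and in Damaraland replicates 2 and 4. In Damaraland replicates 1, 3 and 5 Lep had 41.9, 41.3 and 192 scaled reads. Ucp1 was at 48.0 and 30.9 in Damaraland replicates 1 and 3 and at 0 in the other Damaraland and mouse hearts. For Plin1 the groups overlapped. The part of fat tissue in the Lpl and Cd36 values was not tested.

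Of 34 nuclear genes of complex I of the respiratory chain, 8 were lower and 1 higher (26.5% called, beside 35.5% of all genes), with a median of -0.18. Of 39 genes of complexes II to V, 11 were lower and 1 higher (30.8% called), with a median of -0.49. The lower genes included Ndufab1 (-3.39), Ndufc1 (-3.09) and Ndufa10 (-1.62) in complex I, the cytochrome oxidase subunits Cox7b (-3.34), Cox7a1 (-2.15), Cox8b (-1.82) and Cox5a (-1.66), and the ATP synthase subunits Atp5e (-2.39), Atp5j (-2.27) and Atp5k (-2.12). Ndufb3 (1.39) and Uqcr11 (1.21) were higher. Cox7b, with levels of 12.13, 10.38, 10.41, 9.97 and 8.47 in Damaraland and of 13.54, 13.63 and 13.66 in mouse, showed the spread behind these values: all mole-rats were lower, but they covered more than 3 units.

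Damaraland replicates 4 and 5 were low for this group. They were the 2 lowest Damaraland libraries for 21 of 34 complex I and 24 of 39 complex II to V genes. The median difference of complex I from the mouse mean was -0.03, 0.08 and 0.24 in replicates 1 to 3, and -0.68 and -0.72 in replicates 4 and 5. Without these 2 libraries 5 complex I genes were called lower instead of 8, and 9 of complexes II to V instead of 11. Replicate 5 was also the shallowest of the Damaraland and mouse hearts, with 8551766 reads. All heart libraries were thinned to the smallest size factor of the fit, that of naked mole-rat replicate 3 (0.27). With this thinning, 8 and 11 genes were again called lower.

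**Figure D5:**
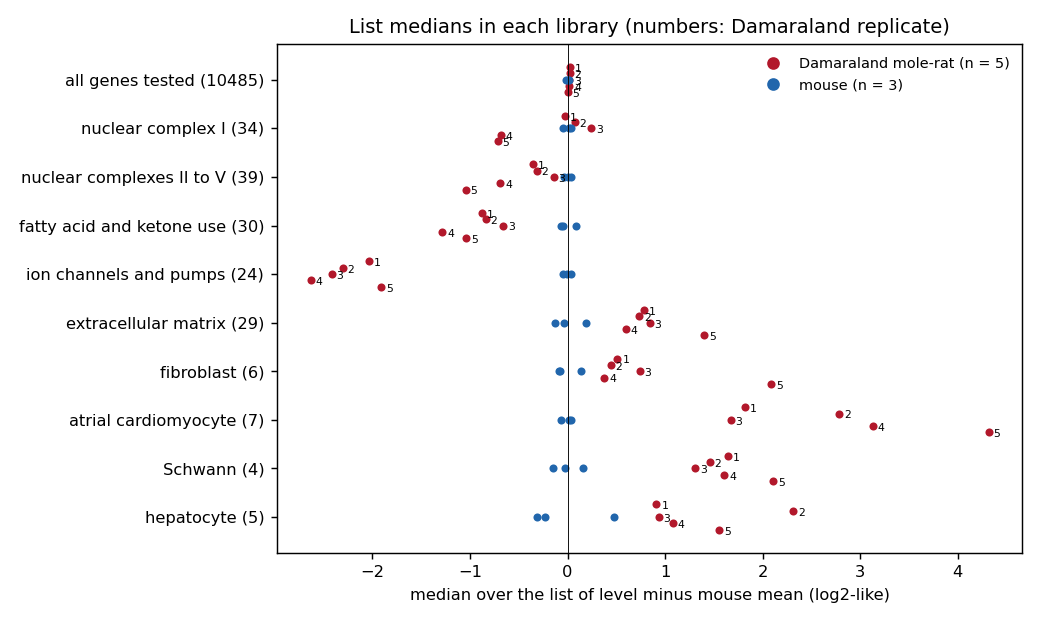
For 10 sets of genes, the median over the set of each library's level minus the mouse mean (horizontal axis, log2-like), in red for the 5 Damaraland hearts with their replicate numbers and in blue for the 3 mouse hearts. Replicates 4 and 5 are lowest for the respiratory chain genes, replicate 5 is highest for fibroblast and atrial markers, and all 5 are below the mice for ion channels.

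Creatine and adenylate genes went both ways, with 5 of 19 higher, 5 lower and a median of 0.05. The muscle creatine kinase Ckm was higher, with levels of 16.89, 17.41, 17.10, 16.70 and 17.09 against 15.34, 15.41 and 15.46, a difference of 1.64 (SE 0.18, adjusted p = 6.7e-07), and every mole-rat was above every mouse. The mitochondrial Ckmt2 (-1.40, SE 0.25), the brain-type Ckb (-3.32, SE 0.22) and the creatine transporter Slc6a8 (-1.19, SE 0.19) were lower. Slc25a5, an ADP/ATP carrier, was lower, at -3.99 (SE 0.15), while Slc25a4, the heart and muscle form, differed by 0.00 (SE 0.21).

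Of 18 hypoxia and oxygen carrier genes 2 were higher and 5 lower, with a median of -0.05. Hif1an, which hydroxylates and restrains HIF, was lower, at -2.37 (SE 0.15), with levels of 8.97 to 9.31 in Damaraland and 11.48 to 11.58 in mouse. P4ha1, a collagen prolyl hydroxylase, was lower, at -2.54 (SE 0.18), and Vhl (-1.01, SE 0.15) and Egln3 (-1.04, SE 0.29) were just past the size limit. Without mouse replicate 1, and likewise without Damaraland replicates 4 and 5, 3 genes of this list were called lower. Ndrg1 (1.50) and heme oxygenase Hmox1 (1.48) were higher. Hif1a (0.15, SE 0.22) and Epas1 (-0.20, SE 0.19) were not called, nor was myoglobin, Mb, at 0.68 (SE 0.35, adjusted p = 0.096). Mb levels were 17.44 to 18.33 in Damaraland and 17.08 to 17.28 in mouse, without overlap. The SE of Mb includes the spread of the naked mole-rat hearts (16.98, 16.90 and 14.98).

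Antioxidant genes were called lower for 6 of 23 and higher for 0 by limma, with a median of -0.17. Replicates 4 and 5 were lowest here too, with list medians of -0.55 and -0.68 against the mouse mean, beside -0.15, 0.09 and -0.21 in replicates 1 to 3. At an unadjusted p under 0.05, 4 were higher. Without the size limit 4 were higher at an adjusted p under 0.05, voom on recovered reads called 1 higher, and leaving out mouse replicate 2 also gave 1. The lower genes were the peroxidases Gpx3 (-2.57, SE 0.35), Gpx4 (-1.52, SE 0.24) and Prdx5 (-2.06, SE 0.20), catalase, Cat (-1.34, SE 0.21), Nqo1 (-1.34, SE 0.18) and the glutathione synthesis subunit Gclm (-1.38, SE 0.21). The NRF2 gene Nfe2l2 differed by -0.12 (SE 0.24) and Sod2 by 0.00 (SE 0.18).

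Of 33 proteasome genes 5 were higher and 1 lower, or 18.2% called beside 35.5% of all genes, and their median was 0.40. The ATPase subunits Psmc5 (1.50, SE 0.18) and Psmc3 (1.07, SE 0.17) and the core subunit Psmb3 (1.41, SE 0.18) were higher, and the immunoproteasome subunit Psmb10 was lower (-1.87, SE 0.15). Without Damaraland replicate 2 only 2 were called higher. Of 29 chaperones 7 were higher and 3 lower, with a median of -0.02; at an unadjusted p under 0.05, 10 were higher and 10 lower, and without the size limit 9 were lower. The co-chaperone Dnaja1, 1 of the lower genes, had at most 1 read in every Damaraland heart. The chaperonin subunits Cct5 (1.91), Cct7 (1.42) and Cct3 (1.28) were higher, as were Hsp90aa1 (1.21) and Hspa2 (2.57). The small heat shock proteins of muscle split: Hspb7 (-2.27) and Hspb6 (-1.95) were lower and Hspb3 (2.00) was higher.

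Extracellular matrix genes had the highest list median, 0.89, with 12 of 29 higher and 3 lower. Of the 12 higher genes, 10 had groups that did not overlap. Lamc1, a laminin chain of basement membranes, had levels of 13.83, 13.44, 13.83, 13.37 and 14.12 in Damaraland and of 11.66, 11.94 and 11.75 in mouse, a difference of 1.93 (SE 0.19, adjusted p = 1.9e-07), with every mole-rat higher. Col5a2, a fibrillar collagen, had levels of 10.35, 10.28, 10.77, 10.71 and 12.15 against 8.89, 9.34 and 8.91, with replicate 5 far above the rest and a difference of 1.81 (SE 0.35, adjusted p = 2.2e-04). Postn, made by activated fibroblasts (1.74, SE 0.32), and the gelatinase Mmp2 (1.37, SE 0.25) were higher, and the proteoglycan Bgn (-1.77, SE 0.37) and the crosslinking enzyme Loxl1 (-1.91, SE 0.31) were lower.

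Fibroblast markers summed to 9978 to 36313 scaled reads in Damaraland and 7070 to 8924 in mouse, and 1 of 6 (Dpt) was called higher. The upper end was replicate 5, where Col3a1 reached 22107 scaled reads against 3990 to 5537 in the other mole-rats. The list median of the matrix genes was 0.60 to 0.84 in replicates 1 to 4 and 1.40 in replicate 5. The part of fibroblast content in the matrix values was not tested.

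Among 16 tested cell cycle genes 4 were higher, 3 lower and the median was 0.49, while 9 listed genes of dividing cells, such as Plk1 and Birc5, were under the filter. Cdkn1a, the p21 inhibitor, was higher by 1.57 (SE 0.28) and the helicase subunit Mcm6 by 1.32 (SE 0.21). Ccng1, cyclin G1, had levels of 10.14, 9.76, 9.71, 9.10 and 9.30 in Damaraland and of 14.35, 14.31 and 14.35 in mouse, a difference of -4.73 (SE 0.24, adjusted p = 4.4e-11), with the groups more than 4 units apart. Without Damaraland replicate 5, 2 cell cycle genes were called higher.

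Circadian clock genes were lower for 7 of 17 tested and higher for 3, with a median of -0.56. The output factors Hlf (-3.06, SE 0.20) and Dbp (-1.70, SE 0.32) were lower. Bhlhe41 (-2.91, SE 0.21) and the core gene Clock (-1.84, SE 0.28) were lower too, and the repressor Cry2 (1.33, SE 0.17) was higher. Bhlhe40 was higher by 1.09 (SE 0.26), and by 0.99 without Damaraland replicate 5, when it was no longer called. The labels used here give no time of day of sampling.

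Of 19 complement and innate immunity genes 4 were higher and 2 lower, with a median of 0.07. C4b, a central component of the classical pathway, had levels of 10.97, 12.54, 10.91, 11.54 and 11.87 in Damaraland and of 7.93, 7.90 and 8.01 in mouse, a difference of 3.62 (SE 0.36, adjusted p = 1.9e-07). All Damaraland hearts were far above the mice, and the guinea pig mean was 8.03. The naked mole-rat hearts, at 11.71, 11.86 and 11.60, lay within the Damaraland range. Cfd (3.10), C6 (2.89) and C2 (1.88) were also higher, and the interferon genes Irf7 (-1.62) and Ifit3 (-1.86) were lower. Leukocyte markers summed to 1276 to 1541 scaled reads in Damaraland replicates 1 to 4, all below the mice (1760 to 2385), and to 2396 in replicate 5. Among them Cd68 and Cx3cr1 were called lower and Cd79a higher, and the part of leukocyte content in the immune genes was not tested.

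Hepatocyte markers were higher in the Damaraland than in the mouse hearts, with 4 of 5 called. Their sum was 3416 to 6832 scaled reads in Damaraland against 338 to 1128 in mouse. Guinea pig hearts had 3829 to 5426 and naked mole-rat hearts 11383 to 31262, so the mouse hearts were the lowest. Schwann cell markers reached 1457 to 3337 in Damaraland against 75.4 to 125 in mouse. For these, too, the mouse was lowest, with 762 to 1122 in guinea pig and 535 to 896 in naked mole-rat. Among the Schwann genes S100b gave most of the reads, with 1039 to 2582 in Damaraland and 3.21 to 8.63 in mouse. The part of these cell types in the other values was not tested. Endothelial sums overlapped, at 12597 to 19700 and 13451 to 17583, but the members differed. Vwf had 3588.5 to 8746.4 scaled reads in Damaraland and 960.09 to 2256.5 in mouse. Of 9 tested, Vwf and Egfl7 were called higher, Kdr lower and 6 were not called. The list median was -0.54 to -0.18 from the mouse mean in the Damaraland hearts. Alas2, the erythroid marker in the table, was lower, at -2.21, with 31.8 to 161 scaled reads in Damaraland and 298 to 1342 in mouse.

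Some genes were close to absent in 1 species. At most 3 reads were found in every Damaraland heart for 28 of the tested genes, and 7 of these had 0 reads in all 5 libraries. Tpi1, triose phosphate isomerase, a glycolytic enzyme that cells generally need, was listed at 0 in every Damaraland heart and at 13.25, 13.42 and 13.40 in mouse, with means of 12.48 in guinea pig and 12.91 in naked mole-rat. It was listed at 0 in the Damaraland livers as well, so no fold is given for it or for the other genes listed at 0. In all, 18 of the 28 genes also had at most 3 reads in every Damaraland liver. Some of the 18, such as Ucp3, Art1 and Myl1, had at most 3 reads in each mouse liver too, so their liver values give no contrast. Others were abundant there, such as Tpi1 and Dnaja1, with up to 8127 and 9653 mouse liver reads. Of the 28, 10 had means at least 1 above the lowest value in both guinea pig and naked mole-rat hearts, such as Stk24, Epn3 and Pdzd2.

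Ucp3, an uncoupling protein of muscle mitochondria, was listed at 0 in all Damaraland hearts and at 10.73, 10.59 and 10.76 in mouse. Unlike Tpi1, it was also near 0 reads in the other rodents, with means of 5.56 in guinea pig and 5.66 in naked mole-rat. Tmem72 and Art1, an ADP-ribosyltransferase, showed 5.36 to 5.64 and 5.36 to 5.62 in Damaraland against 11.44 to 11.51 and 11.30 to 11.35 in mouse. For 25 of the 28 genes (89.3%) a gene of the same name is in the RefSeq annotation of the Damaraland mole-rat assembly DMR_v1.0_HiC, beside 91.7% of all genes tested. Whether reads of these genes could be assigned in that species was not tested.

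In the other direction, 72 genes had at most 3 reads in every mouse heart, and 51 of them in every mouse liver too. Some of the 51, such as S100a5, Ecel1 and Cplx1, also had at most 3 reads in every Damaraland liver. Cdh17, a cadherin of gut epithelium, was at 12.34, 11.24, 12.51, 11.14 and 11.21 in Damaraland and at 0 reads in all mice, with guinea pig and naked mole-rat means of 6.10 and 6.01. The Damaraland hearts were therefore high against all other hearts of the series for this gene. Adgrf1, an adhesion receptor, followed the same order, with 10.54 to 11.15 in Damaraland and means of 5.66 and 5.95 in guinea pig and naked mole-rat. Fxyd7, a regulator of the sodium pump, was at 10.03 to 10.68 in Damaraland and 5.55 to 5.57 in mouse.

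Many differences were also present in liver. The liver comparison rests on 5 Damaraland and only 2 mouse libraries. In liver alone, 4366 of 10763 genes were called between the 2 species (40.6%), 22% higher and 18.6% lower in Damaraland. Of 9890 genes tested in both tissues, 3408 were called in heart and 3839 in liver (38.8%), and 1615 were called in both with the same sign, which is 47.4% of the heart calls and 42.1% of the liver calls. Of the genes called higher in heart 46.9% were higher in liver, beside 20.3% of all 9890 genes, and of those called lower 47.9% were lower, beside 18.5%. Opposite calls were made for 225 genes. The tissues are not independent, since 4 Damaraland mole-rats and 1 mouse gave both, and each table was normalised separately. Creb5, Nedd4 (-5.07 in liver), Svil (-4.47) and Trp53inp2 (-5.81) were lower in both tissues, and Pdk4, at -5.01 in heart, was at 4.20 in liver (SE 0.48, adjusted p = 7.2e-07).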

How the data were processed

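Heart RNA-seq libraries of 5 Damaraland mole-rats and 3 mice were compared; 3 guinea pigs and 3 naked mole-rats entered the fit for a shared estimate of spread. The deposited values are variance-stabilised counts on a log2-like scale; Salmon, DESeq2, cutadapt and the mouse build GRCm38 are named in the submitters' processing notes, without their order. The index of each species and the matching of genes across species are not given in the sources used here. Liver values come from a separately normalised table. The tables hold 26 columns of other series, which were not used; 13921 of 13928 identifiers had a symbol.

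The transform was inverted, and 100% of values came out as whole reads (tolerance 0.0001). Depth and scaled reads (reads over the size factor) come from these; since no gene length is included, levels are not compared between genes. Depth was at least 8551766 reads per Damaraland or mouse heart library. Naked mole-rat heart replicate 3, which also entered the fit, had 4089633 reads.

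limma 3.58.1 in R 4.3.3 was fitted with a coefficient per species and a variance trend, Benjamini-Hochberg adjusted over 10485 genes. Gene members, lists and tests were chosen with earlier results of these data known. Named genes are the 12 largest differences in each direction with groups apart, up to 2 per list and direction, the 5 highest near-absent genes per species, and fixed cardiac and metabolic genes; further list members were named after their values were seen. On simulated reads (11043 genes), 95% of 4-fold and 15% of 2-fold changes were called, 74% of the latter by adjusted p alone, and 0% of unchanged genes. Changes were placed only in genes that were not rare, with the same spread setting for every gene and species. The recovery shares therefore do not cover rare genes, and none of the shares covers the unequal spread of the real groups. Alternatives covered size limit, filter, scaling, variance model, weights, replicate block, voom on recovered reads (4947 genes called), thinning and age. Each Damaraland or mouse library was also left out in turn. Heart library numbers 4 and 5 were left out together as an alternative chosen after seeing the data. Some genes that count toward list totals are not reported here by name.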

Additional observations from a re-analysis of the deposited data

Results flagged for a closer look

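Among 117 checks for a Damaraland heart library far from the other 4 (Dixon's criterion), 14 met it, where chance gives about 1 in 20. The checks covered named genes and a few library measures such as total reads. Genes at 0 in every Damaraland heart, such as Tpi1 and Ucp3, could not meet it but were counted. All that met it were genes, and replicate 1 was the distant library for 3, replicate 4 for 4 and replicate 5 for 7. The distant level was in replicate 1 for Synm (12.81), Trp53inp2 (8.60) and Arhgap26 (6.84). It was in replicate 4 for Rdh5 (11.69), Bdh1 (11.25), Dnaja1 (5.58) and Pln (15.37). It was in replicate 5 for Slc16a7 (12.41), Anapc7 (12.62), Atp5e (8.95), Col5a2 (12.15), Loxl1 (7.84), Bhlhe40 (10.96) and Pdzd2 (5.64). For Dnaja1 and Pdzd2 the other 4 libraries were at 0 reads, so 1 read decided the outcome; without both, 12 genes remain, 3 in replicate 4 and 6 in replicate 5. Replicate 5 is the shallowest Damaraland heart library.

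For 9 named genes all Damaraland libraries lay on one side of all mouse libraries in heart and on the opposite side in liver. Liver had only 2 mouse libraries. The difference between the tissues was not tested, since the tables were normalised separately. In heart and liver the differences were 4.87 and -1.20 for Tpm3, -6.40 and 1.84 for Kcnk3, -5.01 and 4.20 for Pdk4, 1.53 and -1.34 for Pde9a, -1.31 and 0.71 for Corin, 1.71 and -0.43 for Hand2, 4.12 and -0.62 for Pgam1, 1.92 and -1.41 for Bdh1, and 1.21 and -0.62 for Uqcr11. In liver Uqcr11 had a limma adjusted p of 0.056, and Corin, Hand2 and Pgam1 stayed under the size limit.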

How the results depend on the processing

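No named gene that was called in the main fit or under an alternative changed direction in that alternative. Sign changes of genes called in neither were not counted. The 3723 called genes became 7034 without a size limit, 1043 with a difference of at least 2, 1954 in a test against a difference of 1, and 2098 among genes with a mean at least 3 above the lowest value. Genes called alike in heart and liver, 1615, became 3593 without a size limit and 352 with a difference of at least 2. Other settings gave 3058 (filter in each species) to 4947 genes (voom on recovered reads); centring on library medians gave 53.15% higher calls beside 48.97%. Leaving out each Damaraland or mouse heart library in turn gave 3640 to 3806 called genes, and 1585 to 1639 shared with liver. No guinea pig or naked mole-rat library was left out. Leaving out a mouse liver leaves 1 mouse, so counts from such fits are not given.

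Heart replicate numbers do not pair the animals: same-numbered deviations correlated at -0.015, 0.005 and 0.035. With the replicate block 3690 genes were called; numbers 4 and 5 occur only in Damaraland, so this fit takes no information from those libraries, and its values for Npr1 (0.71) and Tnni3 (-0.92), both no longer called, equal those without them. Array weights also took Npr1 (0.95) and Tnni3 (-0.99) below the size limit, and Nppa, not called, was called under 9 settings (2.21 to 3.30). The scale compresses differences of genes with few reads, so small differences among them were not detectable at this depth.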
